A study of Homo sapiens with 3 samples.

Results

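The small MAF proteins MAFF, MAFG and MAFK, their partner BACH1, and 6 AP-1 factors (FOS, FOSL1, FOSL2, JUN, JUNB and ATF3) were followed in RNA-Seq of gemcitabine-sensitive and gemcitabine-resistant bladder cancer cells. These 10 genes were taken by symbol from the 29960 genes of the deposited table, as members of these families; the choice was made with earlier results of these data known. Each of the 10 matched 1 gene and passed the filter on low counts. The study asked which expression differences accompany gemcitabine resistance in 5637, an established bladder cancer line. Its parental cells (5637P, genotype labelled WT) were compared with a derivative line (5637GR, genotype labelled Gemcitabine Resistant). Both were labelled untreated and were grown in RPMI medium with FBS. The methods describe resistance gained under continuous exposure to rising gemcitabine, whereas the labels describe an acute treatment. By the paper, single-cell clones were sequenced, 3 from each line, so all resistant clones descend from 1 selected line. Sample labels cover 1 parental and 2 resistant libraries (parental 1, resistant 1 and resistant 2), and only these were used library by library. The deposited means of normalized counts per group were used beside them as the authors' means, which carry no spread and also cover libraries without a sample label.

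Small MAF proteins are short basic leucine zipper (bZIP) factors that lack a transactivation domain. As homodimers they repress, and with CNC partners such as NRF2 (encoded by NFE2L2) or BACH1 they bind antioxidant response elements, where NRF2 activates and BACH1 represses. AP-1 is a dimer of Jun, Fos and ATF proteins, many of whose genes are induced within minutes of growth factor or stress signals through MAP kinases. In urothelial and other epithelial cells AP-1 is known for genes of proliferation, migration and matrix breakdown.

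Promoters are shown for MAFF, JUN and ATF3, those of the 10 genes in which a cAMP response element or its variant was found. AP-1 and ATF dimers are known to bind such elements in the genes of their own family. RefSeq (GRCh38.p14) gave promoters for 8 of the 10 genes, with no entry for MAFK and FOSL1. MAFF and ATF3 had 2 promoters each, and the promoter with the match is shown. FOS, JUNB and MAFG had a promoter but no match to any element named below. Each sequence is the 150 bases before the start site, written 5′ to 3′ on the gene's strand, at chr22:38201844-38201993 (plus strand) for MAFF, chr1:58784048-58784197 (minus strand) for JUN and chr1:212565257-212565406 (plus strand) for ATF3. Capitals mark the letters of a cAMP response element, TGACGTCA, in MAFF and of the variant TGACATCA in JUN and ATF3.
MAFF: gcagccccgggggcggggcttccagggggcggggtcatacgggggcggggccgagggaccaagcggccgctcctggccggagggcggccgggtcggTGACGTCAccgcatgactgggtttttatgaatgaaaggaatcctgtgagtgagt
JUN: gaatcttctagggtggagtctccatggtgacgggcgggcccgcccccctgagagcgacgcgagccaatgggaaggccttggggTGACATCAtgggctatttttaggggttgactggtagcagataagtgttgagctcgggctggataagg
ATF3: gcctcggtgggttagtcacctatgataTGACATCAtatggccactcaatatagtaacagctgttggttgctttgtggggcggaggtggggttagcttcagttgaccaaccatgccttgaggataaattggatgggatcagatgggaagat
On both strands of 300-base promoters, from 250 bases before to 50 after the start, TGACGTCA occurred in 1.85% and TGACATCA in 2.61% of 35116 RefSeq promoters. The AP-1 element TGACTCA occurred in 4.95% of them, and among the 10 genes in 1 promoter of BACH1 (opposite strand, positions -48 to -42) and in FOSL2 (positions 5 to 11 after the start). The core of the MAF element, TGACNNNGC, occurred in 13.3% of promoters, and in MAFF at positions -122 to -114 on the opposite strand. No match overlapped another. A match is a description of letters and was not tested for binding.

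None of the 10 genes passed the edgeR quasi-likelihood test between resistant and parental libraries at an adjusted p under 0.05. Of 15643 genes tested, 137 did (0.876%), with 0.294% higher and 0.582% lower. At an unadjusted p under 0.05 none of the 10 passed in edgeR or in DESeq2, against 9.7% of all genes in edgeR, and limma-voom and DESeq2 also called 0 of them. By counts scaled to the library total with TMM factors (CPM), 6 of the 10 (MAFG, MAFK, BACH1, FOSL1, JUN and ATF3) were above the parental library in both resistant libraries, a pattern held by 35.2% of all genes. JUNB was below it in both, as were 34.5% of all genes, and MAFF, FOS and FOSL2 lay on both sides. The fit had 1 parental library, which was assumed to vary like the 2 resistant ones, and p-values measure the spread between clones of 1 line. Standard errors of the 10 log2 fold changes ran from 0.35 to 0.63. A p that misses the threshold therefore does not show that a gene did not differ. Changes of 2-fold or less were poorly resolved by 3 libraries, and larger ones could also be missed.

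**Figure D1:**
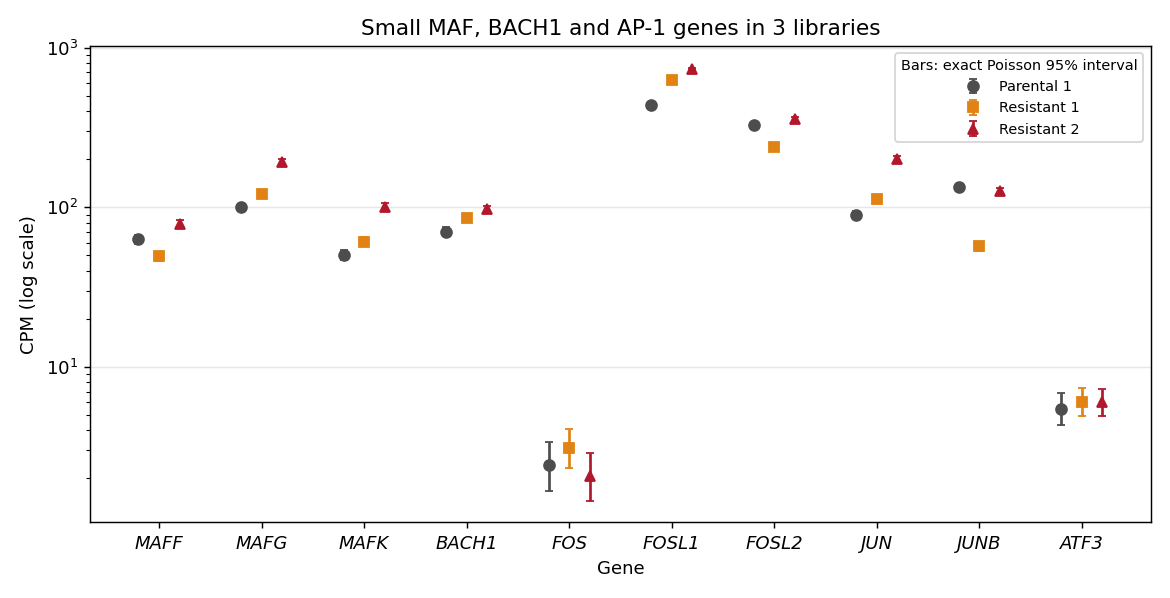
CPM on a log scale for each of the 10 genes in parental 1, resistant 1 and resistant 2; bars are exact Poisson 95% intervals of counting error. FOSL1 is the highest at 436 to 736 CPM and FOS the lowest at 2.08 to 3.12 CPM, and JUNB in resistant 1 sits well below the other two libraries.

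Libraries held 14475531 (parental 1), 15836788 (resistant 1) and 17461941 (resistant 2) counts. Epithelial markers (keratins, EPCAM, CDH1, GATA3 and TP63) summed to 4333 to 5407 FPKM, levels scaled to gene length and library total, with KRT19 the highest in each library. Single markers differed more, as KRT5, a basal keratin, had 104.5 FPKM in parental 1 against 3.99 and 5.43 in the resistant libraries. Uroplakins, which mark differentiated urothelium, summed to 0.393 to 2.80 FPKM, with UPK3A at 0 in every library and UPK1B at 74, 0 and 0 reads. The part of these marker differences in the results was not tested. Endothelial markers summed to 0.0214 to 0.105 FPKM, leukocyte markers to 0.188 to 0.593 and fibroblast markers to 23.1 to 26.1, the last through COL1A1 and COL1A2, with LUM at 0 in every library.

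MAFF (ENSG00000185022, chr22:38597889-38612518, plus strand, hg19), an inducible small MAF, had 62.9 CPM in parental 1, 49.2 in resistant 1 and 78.6 in resistant 2. Resistant 1 was below and resistant 2 above the parental library. The edgeR log2 fold change was 0.024 ± 0.39 (SE), with an adjusted p of 0.996, and the authors' means were 791.6 in resistant against 862.9 in parental cells. Direction therefore depended on the library, with log2 ratios to parental of -0.35 and 0.32.

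MAFG (ENSG00000197063, chr17:79876146-79885590, minus strand), a small MAF partner of NRF2, had 100.01, 121 and 193 CPM in the same order. Both resistant libraries were above the parental one, and resistant 2 was 1.59-fold above resistant 1. The log2 fold change was 0.65 ± 0.41 (SE) with an edgeR adjusted p of 0.699, and the authors' means gave a log2 ratio of 0.41. MAFK (ENSG00000198517, chr7:1570350-1582679, plus strand), the remaining small MAF, with the same dimer partners, had 50.1, 60.8 and 100.8 CPM. Its order across libraries was that of MAFG, with a log2 fold change of 0.69 ± 0.41 (SE), an edgeR adjusted p of 0.680 and a log2 ratio of the authors' means of 0.60. The SIRT7 gene overlaps MAFG on the same strand (1019, 1337 and 1515 reads). Whether counting used strand was not given in the sources used here, so reads in overlaps cannot be assigned with certainty.

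BACH1 (ENSG00000156273, chr21:30566392-31003071, plus strand), the heme-sensitive repressor that pairs with small MAF proteins, had 70.3, 85.9 and 97.7 CPM. Its resistant libraries were close to each other, with a ratio of 1.14 (95% counting interval 1.06 to 1.22). The log2 fold change was 0.39 ± 0.35 (SE), the edgeR adjusted p was 0.845, and the authors' means differed by a log2 ratio of 0.038.

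FOSL1 (ENSG00000175592, chr11:65659520-65668044, minus strand), which encodes FRA-1, had 436 CPM in parental 1, 624 in resistant 1 and 736 in resistant 2. It had the highest level per length of the 10 genes, with 254, 386 and 438 FPKM, and ranked 168, 90 and 70 among all genes. Both resistant libraries were above the parental one and within 1.18-fold of each other (95% counting interval 1.15 to 1.21). The log2 fold change was 0.64 ± 0.37 (SE) with an edgeR adjusted p of 0.662. The authors' means were 8976 in resistant and 5511 in parental cells, a log2 ratio of 0.70 and the largest of the 10.

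FOSL2 (ENSG00000075426, chr2:28615315-28640179, plus strand), which encodes FRA-2, had 326, 237 and 357 CPM. Resistant 1 was below and resistant 2 above the parental library, and the log2 fold change was -0.14 ± 0.39 (SE) with an edgeR adjusted p of 0.971. FOS (ENSG00000170345, chr14:75745477-75748933, plus strand), the classical immediate-early gene, had 34, 51 and 36 reads. That made 2.42 CPM (95% exact Poisson interval 1.67 to 3.37), 3.12 (2.32 to 4.10) and 2.08 (1.45 to 2.87), and the 3 intervals overlapped. No difference in FOS was detected at 34 to 51 reads a library (log2 fold change 0.10 ± 0.63, SE, edgeR adjusted p 0.990). FOSL1 exceeded FOS per length by 233, 259 and 459-fold in FPKM in the 3 libraries.

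JUN (ENSG00000177606, chr1:59246465-59249785, minus strand), the partner that gives AP-1 most of its activating strength, had 89.0 CPM in parental 1, 112 in resistant 1 and 201 in resistant 2. Both resistant libraries were above the parental one, and the log2 ratio of resistant 2 to resistant 1 was 0.85. The log2 fold change of 0.81 ± 0.44 (SE) was the largest of the 10, with the lowest adjusted p in edgeR, 0.617, and rested on resistant 2, since the log2 ratio of resistant 1 to parental 1 was 0.33, below the 0.52 of FOSL1. The authors' means gave a log2 ratio of 0.65. JUNB (ENSG00000171223, chr19:12902310-12904124, plus strand), which can oppose JUN, had 134, 56.9 and 126 CPM. Resistant 1 stood clearly below parental 1, whereas the counting intervals of resistant 2 (121 to 131 CPM) and parental 1 (128 to 140.1 CPM) overlapped, and resistant 2 was 2.22-fold above resistant 1 (95% counting interval 2.05 to 2.39). The log2 fold change was -0.55 ± 0.46 (SE) with an edgeR adjusted p of 0.820, and the authors' means gave a log2 ratio of -0.17. HOOK2 overlaps JUNB on the opposite strand, with 2102, 1632 and 3332 reads, which like those of JUNB were fewest in resistant 1.

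ATF3 (ENSG00000162772, chr1:212738676-212794119, plus strand), a stress-induced factor that dimerizes with Jun proteins, had 5.47 CPM (95% exact Poisson interval 4.32 to 6.84), 6.06 (4.92 to 7.38) and 5.996 (4.90 to 7.26). All 3 intervals overlapped, and the log2 fold change was 0.14 ± 0.49 (SE) with an edgeR adjusted p of 0.979. The authors' means lay the other way, at a log2 ratio of -0.14.

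**Figure D2:**
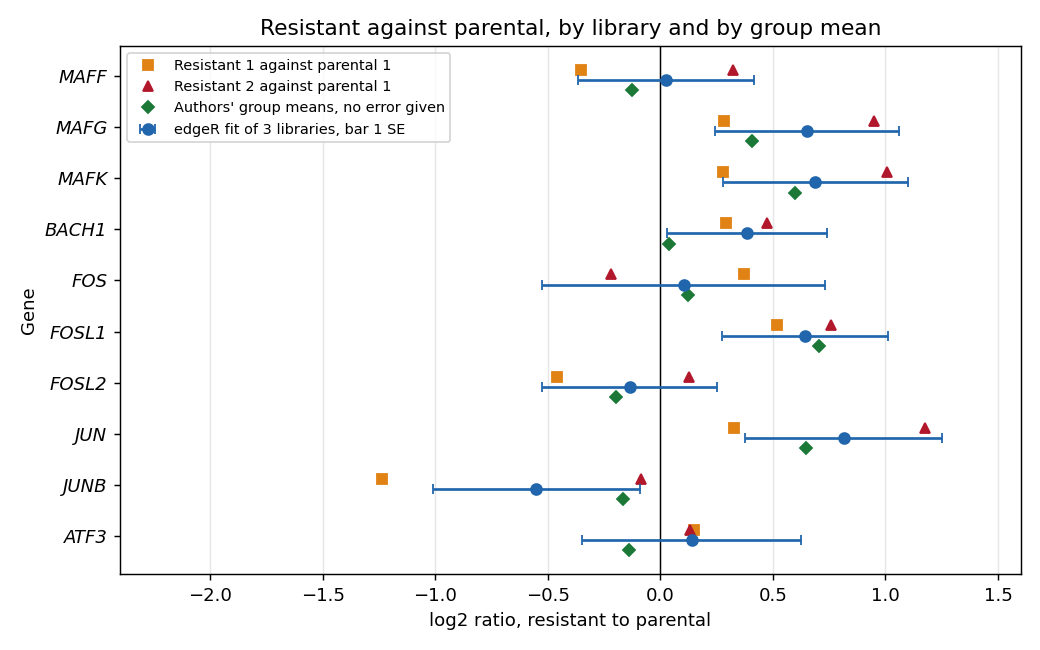
log2 ratio of resistant to parental for each gene: resistant 1 and resistant 2 against parental 1, the ratio of the authors' group means, and the edgeR estimate with a bar of 1 SE. MAFG, MAFK, BACH1, FOSL1 and JUN have all markers to the right of 0; JUNB has all to the left; MAFF, FOS and FOSL2 have libraries on both sides.

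Over the 10 genes the median log2 fold change was 0.26, beside 0.029 over all genes tested, and the median log2 ratio of the authors' means was 0.08, beside 0.012 over 14630 genes with a mean of at least 10. The authors' means were higher in resistant cells for 6 of the 10, as they were for 51.4% of all genes. None of the 10 reached a 2-fold ratio of means, which 6.36% of all genes did. Signs of the edgeR estimate and of the authors' means matched for 8 of the 10, the exceptions being MAFF and ATF3. The 2 values share libraries and are not independent.

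Within families the make-up per length was compared as a share of summed FPKM. FOSL1 made up 83.9% of the Fos family in parental 1, 91.0% in resistant 1 and 89.0% in resistant 2, while FOSL2 made up 15.6%, 8.59% and 10.7%. From the authors' means per length, FOSL1 made up 82.8% in parental and 89.9% in resistant cells. Its share was thus higher in both resistant libraries and in the resistant mean. MAFF made up 42.1%, 31.9% and 31.6% of the small MAF sum, and 41.7% in parental against 31.9% in resistant cells from the authors' means. Its level was not lower in resistant 2, at 31.3 FPKM against 24.6 in parental 1. The shares of MAFG (33.1%, 38.9% and 38.4%) and MAFK (24.8%, 29.1% and 30.0%) were higher in both resistant libraries. JUNB made up 52.0%, 31.9% and 29.5% of the Jun family. JUN made up 18.9%, 34.2% and 25.8%, and JUND, a Jun protein usually present without stimulation, 29.1%, 33.9% and 44.6%. In resistant 2 JUNB had 68.9 FPKM against 71.7 in parental 1, whereas JUND had 104 against 40.1. In all 3 families the leading share of parental 1 was thus that of FOSL1, MAFF and JUNB, and in both resistant libraries MAFG led the small MAF genes. An exact permutation test of 1 library against 2 cannot give a p below 0.333, so it could not decide whether these shares differed.

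**Figure D3:**
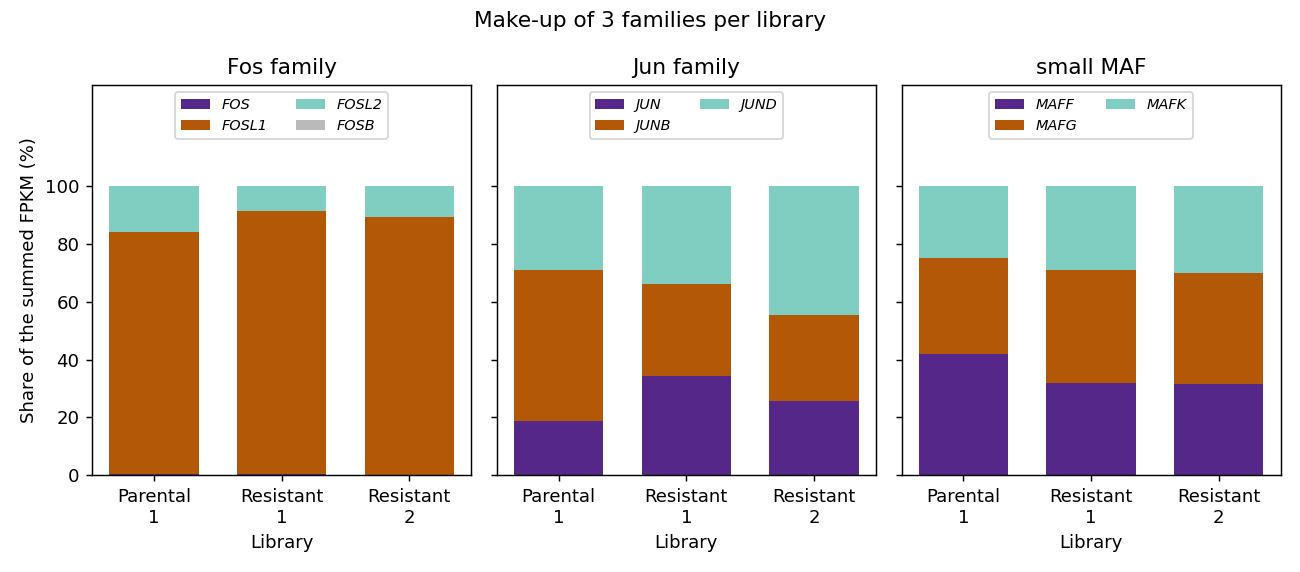
Stacked bars of the percent of summed FPKM held by each gene of the Fos, Jun and small MAF families in parental 1, resistant 1 and resistant 2. FOSL1 fills 83.9% to 91.0% of the Fos bars, and the JUNB and MAFF segments are smaller in both resistant libraries than in parental 1. Segments are shares of a family, not levels.

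Summed small MAF FPKM was 4.93, 4.16 and 5.89 times that of BACH1 in parental 1, resistant 1 and resistant 2. Summed Fos family FPKM was 2.20, 4.18 and 2.11 times that of the Jun family. Neither ratio placed the resistant libraries on the same side of the parental one.

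The 2 resistant libraries differed from each other over most of these genes. Resistant 2 was above resistant 1 for 8 of the 10 genes, against 49.4% of all genes, and the median log2 ratio of resistant 2 to resistant 1 was 0.63 over the 10, beside -0.0092 over all genes. Counting intervals of that ratio included 1 for FOS (0.422 to 1.04) and ATF3 (0.744 to 1.32). GC content moved with this ratio, since the median over all genes was -0.16 in the lowest of 10 equal classes of transcript GC and 0.48 in the highest. The median GC of the 10 genes was 57.0%, beside 48.6% over all genes. JUNB, MAFK and MAFF lay in the highest class, with log2 ratios of resistant 2 to resistant 1 of 1.15, 0.73 and 0.68. With offsets for GC classes in the same edgeR fit, log2 fold changes were 0.73 for JUN, 0.57 for MAFG, 0.52 for FOSL1, 0.48 for MAFK, -0.90 for JUNB and -0.18 for MAFF, and none of the 10 was called. JUND, outside the 10, had a log2 fold change of 0.75 without and 0.36 with these offsets. The family shares of summed FPKM above were taken without offsets for GC content. The part of GC content in these differences was not tested further.

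**Figure D4:**
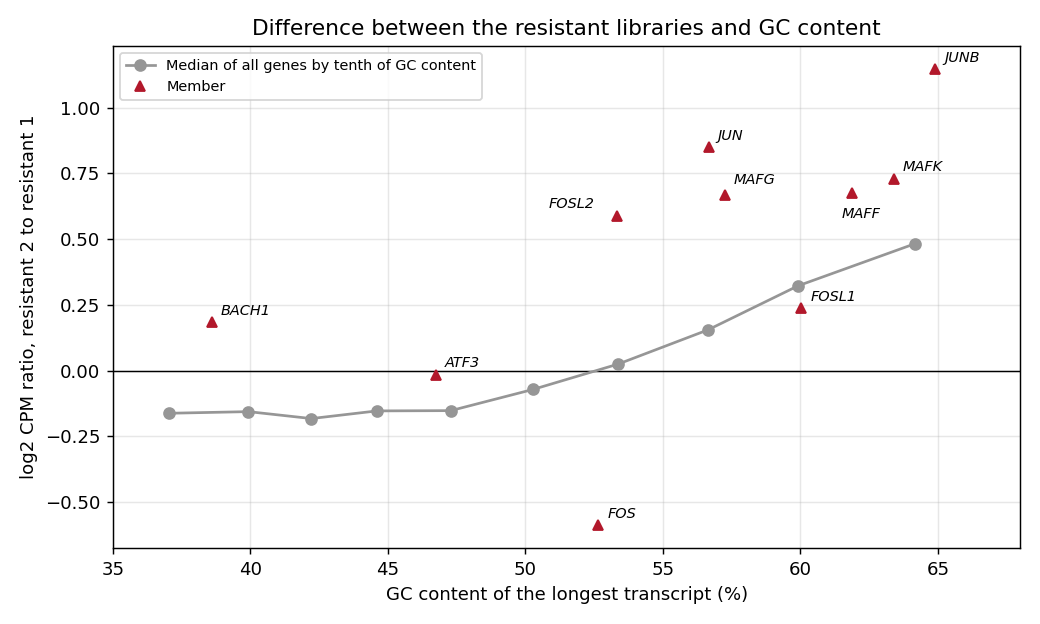
log2 CPM ratio of resistant 2 to resistant 1 against the GC percent of the longest transcript; circles are medians of all genes in 10 equal classes of GC content and triangles the 10 genes. The medians run from -0.16 to 0.48, JUNB has the highest ratio, at 1.15, and FOSL1 and FOS lie below the line of medians.

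Genes near these loci were compared as a description. Within 1 Mb of FOSL1 on chromosome 11, 92 tested genes had a median log2 fold change of -0.25, with 21 higher and 48 lower in both resistant libraries, so FOSL1 lay opposite to the median of its surroundings. Around MAFG on chromosome 17, 70 genes had a median of 0.26, with 39 higher and 7 lower in both. Around MAFK on chromosome 7, 26 genes had a median of 0.29, with 15 higher and 5 lower in both. MAFG and MAFK thus lay on the same side as most of their neighbours, and the part of the chromosome region in their values was not tested. For JUNB the 55 neighbours had a median of -0.11, with 7 higher and 26 lower in both.

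The gene lists from here on were chosen with earlier results of these data known, so counts over them are descriptions. None of the partners that share dimers with the small MAF proteins was called. Among the CNC factors and KEAP1, 5 of 6 genes were tested and 0 called, at a median log2 fold change of 0.0018. In both resistant libraries 1 was higher and 1 lower, beside 35.2% and 34.5% of all genes. NFE2L1, the NRF1 gene, had 641, 538 and 506 CPM and NFE2L3 had 90.6, 102 and 138. KEAP1, the inhibitor of NRF2, had 165, 107 and 165 CPM. Among large MAF genes, whose proteins carry the transactivation domain that small MAF proteins lack, 2 were tested and 0 called. MAF had 18, 0 and 1 reads, MAFA 7, 1 and 2, and NRL 12, 12 and 14, whereas every small MAF gene had at least 706 reads.

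Among other AP-1 and ATF genes, 11 of 12 were tested and 0 called, at a median log2 fold change of 0.09. In both resistant libraries 4 were higher and 3 lower, beside 35.2% and 34.5% of all genes. ATF4, a factor of the integrated stress response, had 112, 104 and 115 FPKM and CEBPB had 59.5, 58.2 and 72.6 FPKM. JUND had 40.1, 34.4 and 104 FPKM, above CEBPB in resistant 2 only, and lay on both sides of the parental library. BATF2, an interferon-inducible bZIP factor, had 16, 102 and 63 reads (log2 fold change 2.11 ± 0.67, SE, edgeR adjusted p 0.284). JDP2, a Jun dimerization repressor, had 253, 103 and 189 reads (-1.06 ± 0.45, SE, edgeR adjusted p 0.481). BATF3, outside the naming rule and named after its values were seen, had 9, 52 and 46 reads and, like BATF2 and JDP2, an unadjusted p under 0.05.

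Upstream of AP-1, 15 MAP kinase and SRF factor genes were tested and 0 called, at 9 higher and 0 lower in both resistant libraries. The median log2 fold change was 0.23, and the authors' means were higher in resistant cells for 15 of 15 at a median log2 ratio of 0.21. Over all genes 35.2% were higher and 34.5% lower in both resistant libraries, and 51.4% had a higher mean in resistant cells. For 6 of the 15 resistant 2 was above resistant 1, beside 49.4% of all genes. MAP2K3, a kinase that activates p38, had 61.9, 112 and 86.1 CPM (0.68 ± 0.37, SE, edgeR adjusted p 0.636). MAP2K2, a kinase that activates ERK, had 70.4, 62.8 and 106 FPKM and lay on both sides, and ELK3, an SRF partner, had 23.1, 30.2 and 25.4 FPKM.

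Other immediate-early genes, which respond to the same signals as FOS and JUN, numbered 14 tested and 0 called, at a median log2 fold change of 0.58. In both resistant libraries 9 were higher and 2 lower, beside 35.2% and 34.5% of all genes. For 11 of 14 resistant 2 was above resistant 1, beside 49.4% of all genes. IER3, a survival gene, had 109, 195 and 231 CPM (0.96 ± 0.38, SE, edgeR adjusted p 0.432). CCN1, which encodes a matrix protein, had 32.4, 92.2 and 67.0 CPM (1.30 ± 0.39, SE, edgeR adjusted p 0.253). The highest per length beside IER3 were MCL1, an inhibitor of apoptosis, with 89.2, 126 and 126 FPKM and IER5 with 48.0, 61.4 and 105 FPKM. EGR1, an immediate-early zinc finger factor, had 33.9, 33.7 and 9.51 CPM, although the authors' means, at 1254 in resistant and 497.2 in parental cells, lay the other way. KLF4, outside the naming rule and named after its values were seen, had 37.4, 72.2 and 99.8 CPM and, like IER3 and CCN1, an unadjusted p under 0.05.

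Feedback genes of the ERK pathway are commonly read as a record of ERK activity, which was not tested here. In both resistant libraries 10 of 10 tested were above the parental library, beside 35.2% of all genes, but 0 were called. Their median log2 fold change was 0.87, and 9 of 10 were higher in resistant 2 than in resistant 1, beside 49.4% of all genes. The authors' means were higher in resistant cells for 9 of 10, beside 51.4% of all genes, at a lower median log2 ratio of 0.49. DUSP5, a nuclear ERK phosphatase, had 44.5, 112 and 137 CPM (1.48 ± 0.38, SE, edgeR adjusted p 0.152). ETV5, an ETS factor, had 8, 73 and 221 reads (3.90 ± 0.84, SE, edgeR adjusted p 0.0772). The authors' means of ETV5 were 84.9 in resistant and 18.6 in parental cells, a lower log2 ratio of 2.13. ETV4 had 61.4, 110 and 126 CPM. EPHA2, a receptor tyrosine kinase, was the highest of the list per length, at 189, 292 and 280 FPKM. ETV5 passed under DESeq2 with an adjusted p of 0.00269, as did DUSP5 with 0.0244. Neither was called in limma-voom or in edgeR with GC offsets, where the edgeR adjusted p was 0.0781 for ETV5 and 0.0795 for DUSP5. PHLDA1, which like DUSP5, ETV5 and ETV4 had an unadjusted p under 0.05, was named after its values were seen and had 107, 188 and 252 CPM.

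Known AP-1 targets held the 1 call among 84 list genes tested, beside 0.876% called over all genes. MMP13, a collagenase, fell from 274 reads in parental 1 to 10 and 17 in the resistant libraries (log2 fold change -4.59 ± 0.51, SE, edgeR adjusted p 0.00258), and the authors' means were 34.3 in resistant against 234.6 in parental cells. Of the 14 targets tested, 9 were higher in both resistant libraries and 2 lower, at a median log2 fold change of 1.06. Resistant 2 was above resistant 1 for 14 of 14, beside 49.4% of all genes, so the 2 resistant libraries differed over this list. The shares over all genes were 35.2% higher and 34.5% lower in both. The authors' means were higher in resistant cells for 8 of the 14 and lower for 6, beside 51.4% of all genes higher, at a median log2 ratio of 0.21, so the larger median is that of the 3 labelled libraries alone. PLAU, the urokinase gene, had 166, 374 and 471 CPM (1.35 ± 0.39, SE, edgeR adjusted p 0.220, DESeq2 adjusted p 0.0439). It was not called in limma-voom or with GC offsets. CCND1, which encodes cyclin D1, had the list's highest FPKM, at 286, 326 and 428, and CD44 had 72.7, 66.0 and 66.2. MMP13 thus went opposite to most of the tested targets, and the part of FOSL1 or JUN in any of them was not tested.

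Targets of BACH1 and the small MAF proteins, genes of heme, iron and glutathione handling, numbered 13 tested and 0 called. There were 5 higher and 2 lower in both resistant libraries, beside 35.2% and 34.5% of all genes, at a median log2 fold change of 0.12. For 4 of the 13 resistant 2 was above resistant 1, beside 49.4% of all genes. FTL and FTH1, the ferritin chains, had 415, 397 and 621 FPKM and 266, 186 and 219 FPKM, and TXNRD1 had 79.2, 103 and 67.8. SLC7A11, the cystine importer, and OSGIN1, a growth inhibitor, had an unadjusted p under 0.05 and were named after their values were seen, at 27.99, 51.3 and 62.6 CPM and at 3.27, 11.6 and 8.71 CPM.

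**Figure D5:**
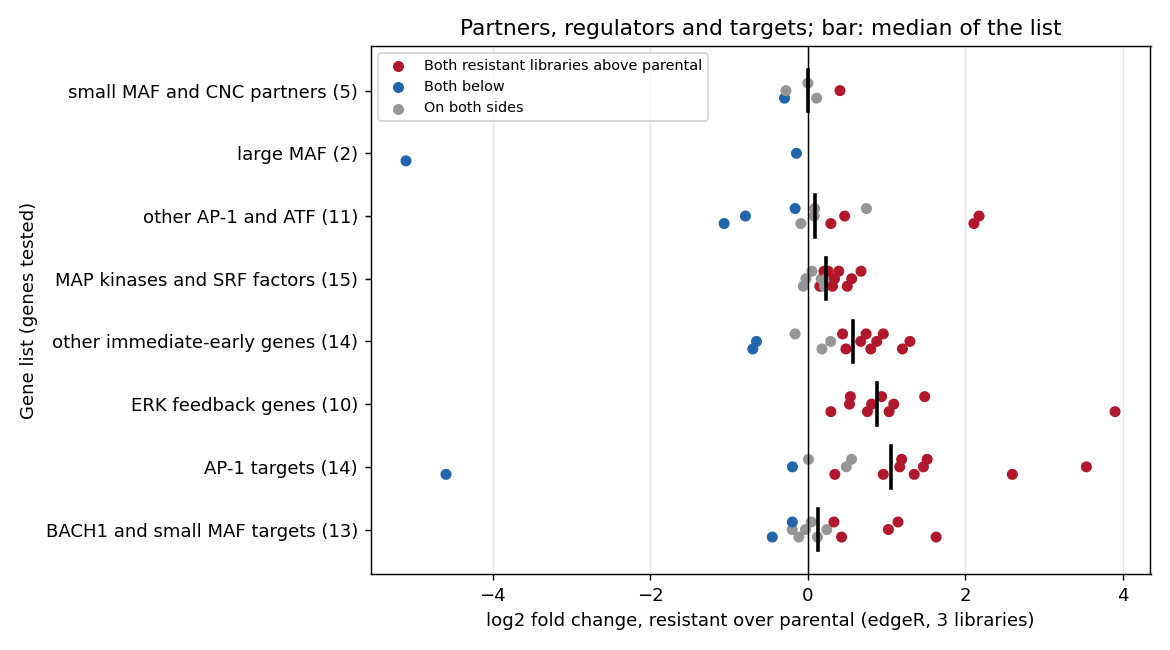
log2 fold change (edgeR, 3 libraries) of each tested gene of 8 lists. Colours show whether both resistant libraries lay above, below or on both sides of parental 1. Vertical bars are list medians, except for the large MAF list, which has no bar. ERK feedback genes (median 0.87) and AP-1 targets (median 1.06) lie mostly to the right of 0, with MMP13 at -4.59 the gene that passed the test.

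Genes with the most similar levels across the 3 libraries were named by distance in the 2 log2 ratios to parental 1, over 9666 genes of mean CPM at least 10. For FOSL1 the closest was ABCB10, with 22.5, 32.1 and 37.9 CPM, followed by NELFA with 74.3, 106 and 124 and FAM84B with 264, 379 and 453, and 68 genes lay within 0.1. For MAFF they were RGMB (38.5, 30.0 and 47.8 CPM), NDUFA3 and FGFR2, again with 68 genes within 0.1. For JUN they were FAM214B (9.23, 11.8 and 20.6 CPM), CDK18 and CLMP, with 19 genes within 0.1. The likeness rests on 3 libraries and is a description.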

How the data were processed

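RNA-Seq was made by the authors from single-cell clones of 5637 cells (poly-A mRNA). The submitters' processing notes name CASAVA 1.8 and the genome build hg19; aligner, counter, annotation and strandedness were not given in the sources used here. The deposited tables hold raw read counts per gene and library, FPKM that the authors computed from those counts, gene length and library total, and a group signal, the authors' mean of counts scaled by a size factor. In all, 6 columns of libraries without a sample label were not used, and neither were the authors' columns of log2 fold changes and p-values.

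Counts of 3 libraries were fitted across all genes with edgeR 4.0.16 (R 4.3.3; TMM, filterByExpr, quasi-likelihood test, 1 residual degree of freedom) with Benjamini-Hochberg adjustment over 15643 genes; the spread comes from the 2 resistant libraries. Group means were compared as log2 ratios with a pseudocount of 1, on which low genes are understated. GC content was that of the longest GENCODE transcript (97.1% of tested genes matched). DESeq2 1.42.0, limma-voom (limma 3.58.1), another scaling, no filter on low counts, leaving out a resistant library and, added after seeing the data, GC offsets were alternatives. The test was checked on simulated data. Counting intervals (95%, exact) cover counting error only. Coordinates of genes are those of the deposited table.

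The 10 genes and the gene lists were chosen with earlier results of these data known. From the lists, genes were named where called by edgeR, where the ratio of group means was at least 2-fold, or where they were among the 3 highest FPKM of the list. Likeness was named for MAFF, FOSL1 and JUN, 3 genes each at most. A gene of the lists is not reported here.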

Additional observations from a re-analysis of the deposited data

How the results depend on the processing

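None of the 10 genes was called under any alternative, with a lowest adjusted p of 0.307 (JUNB, GC offsets, added after seeing the data) against 0.617 in the reported fit. Over all genes, 137 calls became 235 with DESeq2 size factors, 534 without the filter, 248 in DESeq2, 78 in limma-voom and 1517 at an unadjusted p under 0.05, so the number of calls depends on the tool. Large MAF genes had 1 call without the filter and 1 at an unadjusted p under 0.05 (MAF in both). At an unadjusted p under 0.05 there were 3 of 11 other AP-1 and ATF genes, 3 of 14 other immediate-early genes and 4 of 10 ERK feedback genes. There were also 9 of 14 AP-1 targets and 2 of 13 targets of BACH1 and small MAF proteins, beside 9.7% of all genes tested. Because the lists were chosen with earlier results of these data known, these counts are a description and no test of a list. ERK feedback genes had 1 call with DESeq2 size factors (ETV5), 2 without the filter and 2 in DESeq2 (ETV5 and DUSP5 in each); AP-1 targets had 5 without the filter (MMP13, MMP1, VEGFA, HBEGF and SPRR1B) and 2 in DESeq2 (MMP13 and PLAU). MMP13 was called in each tool and setting that gave an adjusted p. In limma-voom and with GC offsets 0 ERK feedback genes were called, and MMP13 was the only AP-1 target called.

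Leaving out resistant 1 or resistant 2 left 1 library against 1, with values and no test. The median log2 fold change of the 10 genes was 0.28 to 0.40 then, against 0.26. MAFF ran from -0.35 to 0.32, FOS from -0.22 to 0.37 and FOSL2 from -0.46 to 0.13, so that each changed direction with the library. JUN ran from 0.33 to 1.18, JUNB from -1.24 to -0.088, MAFG from 0.28 to 0.95 and MAFK from 0.28 to 1.007, each with its higher value without resistant 1. MAFF was also -0.015 in limma-voom and -0.18 with GC offsets, and the cause was not tested. With the 3 libraries in place of the authors' means, the median log2 ratio was 0.26 instead of 0.08, MAFF was 0.024 instead of -0.12, BACH1 0.39 instead of 0.038 and ATF3 0.14 instead of -0.14; these means cover libraries without a sample label. ATF3 was -0.12 with a pseudocount of 10 and -0.15 when centred on the median of all genes. No paired analysis was made, because by the paper the libraries come from independent single-cell clones and no pairing was given. Depth limits FOS and ATF3, at 34 to 104 reads a library.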

Other observations

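For 16 of the 84 list genes tested the edgeR estimate and the authors' group means had opposite signs, and the means cover libraries without a sample label that were not analysed here. In 6 of the 16 both resistant libraries lay on 1 side of the parental one: EGR1, described above, CXCL8, SPRR1B, FOSB, SPRY4 and NRL. CXCL8, a chemokine gene, had 16.7 CPM in parental 1, 31.2 in resistant 1 and 43.9 in resistant 2, beside authors' means of 432.8 in resistant and 457.3 in parental cells. SPRR1B, a cornified envelope gene, had 1.07, 2.02 and 11.0 CPM, beside authors' means of 65.2 and 74.9. FOSB had an edgeR log2 fold change of 0.29 beside a log2 ratio of means of -0.15, SPRY4 had 0.81 beside -0.018 and NRL -0.14 beside 0.51. MMP1, a collagenase gene, had 11.3, 26.3 and 236 CPM, so that resistant 2 stood apart from the other labelled libraries. Its authors' means were 1274 in resistant and 939.0 in parental cells. Parental 1 had 159 reads, far below that parental mean, so resistant 2 cannot be said to stand apart from parental cells as a group. CXCL8, SPRR1B, FOSB, SPRY4 and MMP1 were chosen after their values were seen.

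OVOL1, a zinc finger factor of epithelial differentiation 94.83 kb from FOSL1, had 11.4, 19.5 and 22.9 CPM (log2 fold change 0.89 ± 0.40, SE, edgeR adjusted p 0.525). Its order across the 3 libraries was that of FOSL1, and it too lay opposite to the median of the FOSL1 neighbourhood; it was chosen after its values were seen.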
